A study of Mus musculus with 6 samples.

Results

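The genes described here encode nuclear subunits of the mitochondrial respiratory chain and of ATP synthase, together with assembly factors of complex I. They were chosen by name: every gene whose only symbol in the platform annotation starts with Nduf, Uqcr, Cox4, Cox5, Cox6, Cox7, Cox8 or Atp5. The rule gave 86 of the 18193 genes that have a probe set with 1 symbol. Where a gene had several probe sets, the brightest on average over all 6 arrays stood for it. By role, 34 are subunits of complex I, 8 of complex III, 11 belong to complex IV and 17 to ATP synthase (complex V), 8 are assembly factors of complex I, and 8 are isoforms or paralogs known mainly from other tissues. Ndufa4, first named as a complex I subunit and now assigned to complex IV, was placed in complex IV, and so was Cox7a2l, which links complexes III and IV in supercomplexes.

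The study set livers of C57BL/6 mice on a ketogenic diet (F3666, Bio-Serv), which supplies mostly fat and almost no carbohydrate, against livers of C57BL/6 mice on chow (Labdiet 5008). All mice were 8 weeks old when the diets began, were fed for 6 weeks, and gave their livers in the morning while feeding freely. Transcripts were read on Affymetrix one-colour arrays, 3 per diet. Each group drew on 2 to 3 animals according to the series' design text, which does not say whether an array held RNA of 1 animal or of several. The p-values therefore reflect the spread among these arrays alone, and that spread may be technical.

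Oxidative phosphorylation passes electrons from NADH and from reduced flavins along complexes of the inner mitochondrial membrane to oxygen. Complexes I, III and IV pump protons as they do so, and ATP synthase uses the proton gradient to make ATP. In liver this chain takes up the NADH and the reduced flavins that fatty acid oxidation and the tricarboxylic acid cycle release. Most subunits are encoded in the nucleus, imported, and built into complexes with subunits that mitochondria encode themselves.

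No subunit transcript passed the test between the diets, and most measured differences were small and negative on the ketogenic diet. Of the 81 members that passed the filter on low signals, 0 changed in limma's test at an adjusted p under 0.05, against 7.46% of the 11858 genes tested (6.6% called higher and 0.86% called lower). Even without adjustment 0 of the 81 had p under 0.05, against 23% of all genes tested. The median log2 change, ketogenic minus chow, was -0.105 over these 81 and 0.237 over all genes tested. A negative change was seen for 58 of the 81, and 75 lay below the median of all genes. The median of the members moved with the arrays included. Without ketogenic array 3 it turned to 0.019, with 35 of 81 negative. Without chow array 1 it stayed negative at -0.0239, with 45 negative among the 80 then tested.

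The size of change that these arrays allow can be given for each subunit. Among the 68 tested members of complexes I, III, IV and V, the log2 changes ran from -0.60 to 0.28, with a median standard error (SE) of 0.242. The 95% confidence interval of the fold change lay within 2-fold in either direction for 63 of the 68, and within 1.5-fold for 9. Over all genes tested, 46.2% had an interval within 2-fold. The smallest log2 change called in any gene was 0.882, so a subunit change well below 2-fold could not have been called. These intervals take the array levels as deposited, and those levels differed: scaling all arrays to a common 2% trimmed mean gave 6 members lower and 0 higher, scaling to the hybridization controls gave 2 higher and 0 lower, and a common array median gave 1 lower. The median over the 81 members was -0.317 with the trimmed mean and 0.257 with the hybridization controls, where 9 of the 81 were negative. All directions given from here on are those of the deposited levels and hold only with that limit.

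**Figure D1:**
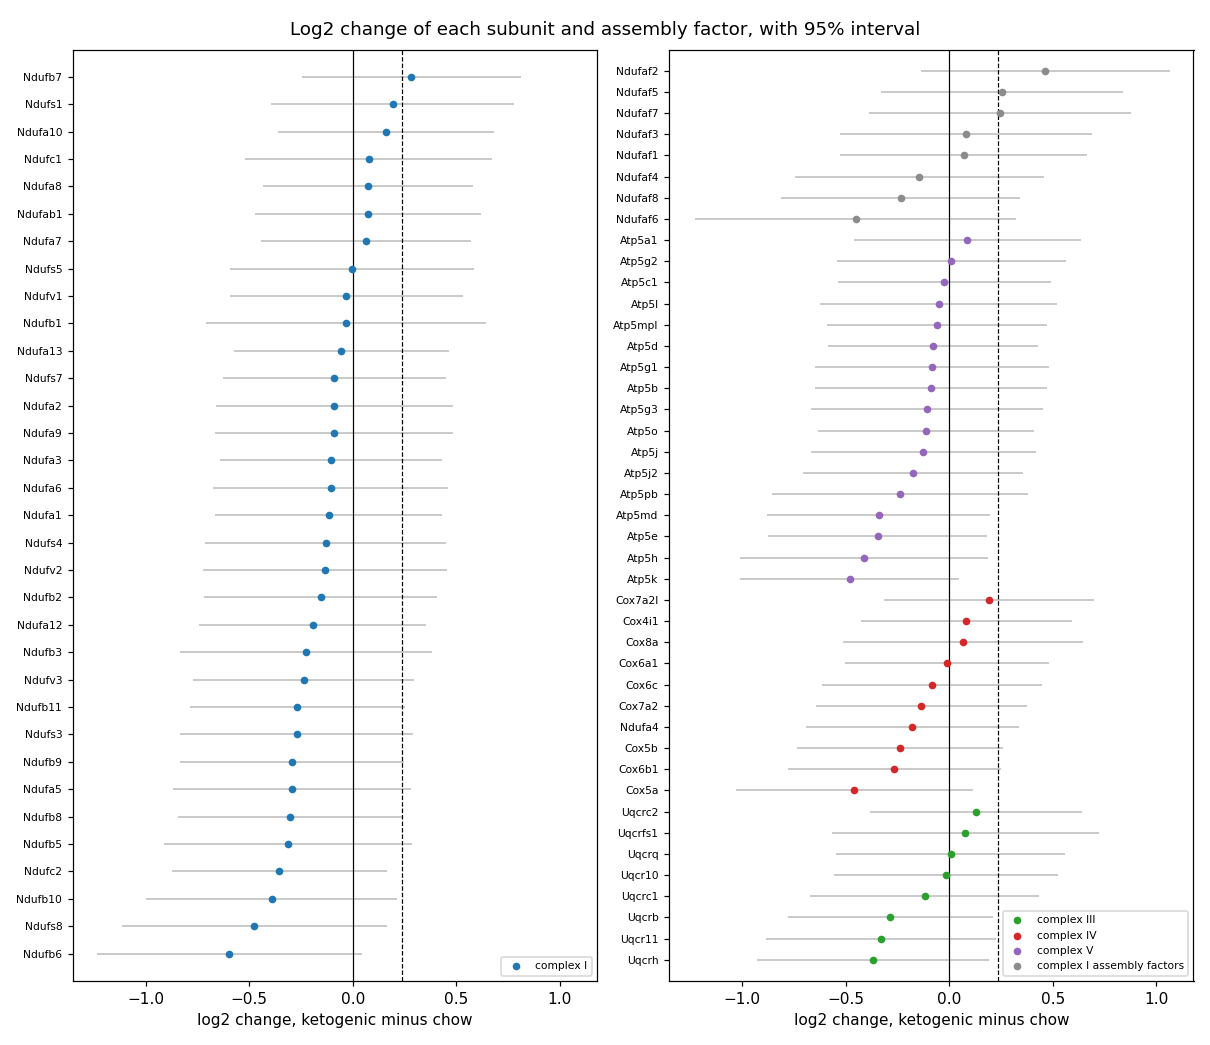
Log2 change (ketogenic minus chow) of each tested subunit of complex I on the left, and of complexes III, IV and V and the complex I assembly factors on the right, with bars for the 95% confidence interval of limma's fit (n = 3 arrays per diet). The solid line marks 0 and the dashed line the median of all genes tested, 0.237; points run from -0.60 for Ndufb6 to 0.46 for Ndufaf2, and every interval spans 0.

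Promoters of these genes are known in part for sites of NRF1, of ETS factors such as GABP, of YY1 and of the estrogen-related receptors, which are regarded as shared regulators of the respiratory chain. Promoter windows of 300 bases (250 before and 50 after the annotated start, RefSeq, GRCm38.p6) were found for 71 of the 86 members. They were searched on both strands for GCGCA followed by any base and GCGC (NRF1), CCGGAAG (ETS), AAGATGGC (YY1) and TGACCTTG (estrogen-related receptor). The NRF1 letters were in windows of 15 of the 71 members (21.1%) and of 5.19% of all 27025 genes in the table. For the ETS letters the shares were 23.9% (17 members) and 9.93%, for the YY1 letters 14.1% (10 members) and 3.19%, and for the receptor letters 4.23% (3 members) and 1.76%. No match of one motif overlapped a match of another in these members' windows (0 cases). At least 1 of the 4 motifs was found for 37 of 71 members, against 17.9% of all genes. A match is a description of letters and not of a bound site.

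The 250 bases before the start are shown for the member with the lowest log2 change in complexes I, III and V (Ndufb6, Uqcrh, Atp5k), the member with the highest in complex I (Ndufb7), and Cox6a1, whose signal was nearly equal on both diets. They are given from 5′ to 3′ on the gene's strand, with motif matches in capitals. Ndufb6 lies at chr4:40279422-40279671 (minus strand), Uqcrh at chr4:116075071-116075320 (minus), Atp5k at chr5:108434400-108434649 (minus), Ndufb7 at chr8:83566508-83566757 (plus) and Cox6a1 at chr5:115348959-115349208 (minus), all in GRCm38.p6. The capitals are an ETS match in Ndufb6, Uqcrh and Ndufb7, an NRF1 match in Atp5k, and 2 NRF1 matches and an ETS match in Cox6a1.
Ndufb6: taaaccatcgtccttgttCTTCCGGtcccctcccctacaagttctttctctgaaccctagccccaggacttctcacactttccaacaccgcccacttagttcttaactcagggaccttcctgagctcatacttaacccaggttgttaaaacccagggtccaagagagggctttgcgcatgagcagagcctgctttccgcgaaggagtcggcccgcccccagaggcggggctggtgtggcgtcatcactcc
Uqcrh: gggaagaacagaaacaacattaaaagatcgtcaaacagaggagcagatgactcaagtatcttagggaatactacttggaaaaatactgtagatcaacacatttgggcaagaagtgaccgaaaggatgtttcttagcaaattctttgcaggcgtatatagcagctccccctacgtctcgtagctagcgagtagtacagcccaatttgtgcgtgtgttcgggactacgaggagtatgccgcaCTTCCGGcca
Atp5k: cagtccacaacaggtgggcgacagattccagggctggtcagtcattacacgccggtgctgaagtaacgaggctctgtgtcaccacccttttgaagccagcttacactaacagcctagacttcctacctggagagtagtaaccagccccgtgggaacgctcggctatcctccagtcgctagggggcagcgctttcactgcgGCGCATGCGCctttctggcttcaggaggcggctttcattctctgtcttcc
Ndufb7: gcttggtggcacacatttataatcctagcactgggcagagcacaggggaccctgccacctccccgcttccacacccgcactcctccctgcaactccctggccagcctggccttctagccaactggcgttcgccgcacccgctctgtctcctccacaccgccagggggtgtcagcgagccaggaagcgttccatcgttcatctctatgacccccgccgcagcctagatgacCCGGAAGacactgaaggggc
Cox6a1: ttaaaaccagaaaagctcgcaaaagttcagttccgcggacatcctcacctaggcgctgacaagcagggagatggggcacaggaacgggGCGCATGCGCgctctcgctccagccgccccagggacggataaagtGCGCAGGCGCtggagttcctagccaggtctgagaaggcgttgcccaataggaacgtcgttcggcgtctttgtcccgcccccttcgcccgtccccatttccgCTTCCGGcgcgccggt

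The same ETS letters thus stood before the complex I subunits with the lowest and the highest log2 change. Members tested with an ETS match had a median log2 change of -0.27 (17 genes), and those without had -0.10 (49 genes). With an NRF1 match the median was -0.11 (14 genes) and without it -0.13 (52 genes). These medians are descriptions and were not tested.

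Complex I takes electrons from NADH. None of its 33 tested subunits passed the threshold (0, with adjusted p between 0.248 and 0.996), 26 had a negative change, and the median log2 change was -0.116. In the N module, which binds NADH and starts electron transfer, the median over 9 subunits was -0.11. Ndufv1, the flavin-binding subunit that oxidizes NADH, had signals of 1107, 977 and 802 on chow arrays 1, 2 and 3 and of 1036, 1006 and 781 on ketogenic arrays 1, 2 and 3. Its diets overlapped throughout, with a log2 change of -0.03 ± 0.25 (SE). Ndufs1, which carries iron-sulfur clusters of the same module, had 447, 348 and 304 on chow and 476, 438 and 340 on ketogenic arrays, a log2 change of 0.19.

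For all 5 tested subunits of the Q module, where ubiquinone is reduced, the representative probe set had a negative change, with a median of -0.27. Ndufs8, an iron-sulfur subunit of this module, had 1985, 1578 and 1264 on chow and 1123, 1462 and 896 on ketogenic arrays. Ketogenic arrays 1 and 3 lay below all chow arrays and ketogenic array 2 lay inside their range, and the log2 change was -0.48 ± 0.28 (SE) with adjusted p = 0.352 in limma's test. Its 5 further probe sets gave log2 changes from -0.34 to 0.07, with -0.09 and -0.19 for those with mean signals of 1190 and 1085. For Ndufs3, Ndufa5, Ndufa9 and Ndufs7 the log2 changes were -0.27, -0.29, -0.09 and -0.09.

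The membrane arm, which pumps protons, holds both ends of the complex I range. Ndufb6, an accessory subunit of this arm, had 981, 983 and 747 on chow and 626, 769 and 432 on ketogenic arrays. Ketogenic array 2 lay just above chow array 3, so the diets overlapped. Its log2 change was -0.60 ± 0.28 (SE), with adjusted p = 0.248, the lowest adjusted p of all 81 members tested. The 95% interval ran from -1.24 to 0.04. A further Ndufb6 probe set, with a mean signal of 683 against 756 for the representative, gave -0.12. The representative of Ndufb6 passed the threshold with the trimmed mean scaling, together with Ndufs8 and Ndufb10 (adjusted p = 0.0354, 0.042 and 0.0479).

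At the other end stood Ndufb7, a membrane arm subunit that faces the intermembrane space, with 797, 648 and 609 on chow and 894, 847 and 747 on ketogenic arrays. Chow array 1 lay above ketogenic array 3. The log2 change was 0.28 ± 0.23 (SE, adjusted p = 0.504), and it passed only when arrays were scaled to the hybridization controls (0.0472). Ndufa13, which also acts in the assembly of the complex, had 2103, 1912 and 1999 on chow and 2093, 2093 and 1634 on ketogenic arrays, and Ndufb9 had 2357, 2159 and 1969 against 1903, 1982 and 1443. Their log2 changes were -0.06 and -0.29, and in both cases the diets overlapped.

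Only for Ndufc2 and Ndufb11 among the complex I subunits did the diets not overlap, both lower on the ketogenic diet. Over all genes tested, the diets did not overlap for 29.3%, lower for 5.17% and higher for 24.1%. Ndufc2, an accessory subunit of the membrane arm, had 1203, 1237 and 1002 on chow and 941, 954 and 794 on ketogenic arrays. Its log2 change was -0.35 ± 0.23 (SE, adjusted p = 0.395). Ndufb11 had 1912, 1763 and 1704 against 1642, 1574 and 1273, a log2 change of -0.27. The representative probe set of Ndufb4 did not pass the filter (signals from 2.3 to 9.6 on all arrays), and the brighter probe sets for Ndufb4 also carry the symbols of Ndufb4b and Ndufb4c and were left out.

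Complex III passes electrons from ubiquinol to cytochrome c. Of its 8 subunits 0 passed the threshold, 5 had a negative change, and the median log2 change was -0.07. Uqcrh, the acidic hinge protein that helps cytochrome c1 meet cytochrome c, had 1401, 1254 and 1088 on chow and 1061, 1080 and 777 on ketogenic arrays. Every ketogenic array lay below every chow array, narrowly for chow array 3, and the log2 change was -0.37 ± 0.25 (SE, adjusted p = 0.413), with -0.14 in a further probe set. Uqcrb, a subunit near the ubiquinone site, had 6241, 6084 and 6336 on chow and 5206, 5451 and 4693 on ketogenic arrays. The gap between the diets was wider than the range within chow and narrower than the range within the ketogenic arrays, at a log2 change of -0.28 ± 0.22 (SE, adjusted p = 0.472). Uqcr11, a small subunit, had 1500, 1216 and 1158 against 1134, 1118 and 841, and its diets did not overlap.

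Among the members of complex III, the core proteins and the iron-sulfur subunit overlapped between the diets. Cytochrome c1 (Cyc1), whose symbol the rule did not take, did not overlap and was lower on the ketogenic diet. Uqcrc2, a core protein, had 1154, 1089 and 936 on chow and 1212, 1201 and 1058 on ketogenic arrays, with the highest log2 change of the complex, 0.13. Uqcrfs1, the Rieske iron-sulfur protein, had 1302, 1333 and 846 on chow and 1252, 1458 and 946 on ketogenic arrays, a log2 change of 0.08. For Uqcrc1, Uqcr10 and Uqcrq the log2 changes were -0.12, -0.02 and 0.01, and a dim probe set of Uqcrq (mean signal 16) gave 1.26. Uqcrq had 1968, 1751 and 1545 on chow and 1889, 1992 and 1440 on ketogenic arrays.

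Complex IV, cytochrome c oxidase, reduces oxygen. None of its 10 tested members passed the threshold (0), and the median log2 change was -0.11. Cox5a, a subunit on the matrix side, had 2865, 2489 and 2555 on chow and 2097, 2267 and 1478 on ketogenic arrays, with every ketogenic array below every chow array. Its log2 change was -0.46 ± 0.25 (SE, adjusted p = 0.314), and it passed with the trimmed mean scaling (0.0453). Cox5b, a zinc-binding subunit, had 2917, 2804 and 2684 against 2401, 2553 and 2187, and Cox6b1, which faces the intermembrane space, had 3413, 3243 and 3248 against 2900, 3039 and 2350. Neither overlapped between the diets, with log2 changes of -0.24 and -0.27.

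Cox4i1, the regulatory subunit that binds adenine nucleotides, had 2859, 2712 and 2517 on chow and 2938, 3122 and 2526 on ketogenic arrays. Its diets overlapped, with a log2 change of 0.08. Cox6a1 stood at 3951, 3783 and 3573 on chow and 3878, 3810 and 3530 on ketogenic arrays, a log2 change of -0.01 ± 0.22 (SE) with a 95% interval of the fold from 0.705 to 1.40. Cox7a2 had 3686, 3170 and 3686 against 3288, 3452 and 2870, and Cox8a had 970, 937 and 665 against 952, 969 and 754. Cox7a2l gave the highest log2 change in complex IV, 0.19 ± 0.22 (SE), with 431, 408 and 369 on chow and 504, 449 and 428 on ketogenic arrays. Chow array 1 lay just above ketogenic array 3. Cox6c and Ndufa4 had log2 changes of -0.08 and -0.18, and the representative probe set of Cox7c did not pass the filter (3.7 to 11.5).

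Complex V, ATP synthase, couples the return of protons to the making of ATP. Of its 17 members 15 had a negative log2 change and 0 passed the threshold, with a median of -0.11. In the catalytic F1 head Atp5b, the beta subunit that holds the active sites, had 3424, 3215 and 2496 on chow and 2953, 3206 and 2412 on ketogenic arrays. Atp5a1, the alpha subunit, had 2560, 2436 and 1921 on chow and 2666, 2581 and 2085 on ketogenic arrays, the highest log2 change in complex V at 0.09 ± 0.24 (SE). Both overlapped between the diets, and so did Atp5c1 and Atp5d, the gamma and delta subunits of the central stalk, at -0.02 and -0.08. Atp5e, the small epsilon subunit of that stalk, had 915, 833 and 835 on chow and 654, 804 and 589 on ketogenic arrays, without overlap, and a log2 change of -0.35 ± 0.23 (SE, adjusted p = 0.411).

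The c ring, which turns as protons pass, is made from identical mature proteins of the genes Atp5g1, Atp5g2 and Atp5g3. Atp5g3 had 4237, 4061 and 3379 on chow and 3820, 4185 and 2914 on ketogenic arrays. For Atp5g1 the signals were 1391, 1232 and 1019 against 1201, 1301 and 941, and for Atp5g2 they were 1084, 958 and 816 against 1016, 1069 and 794. All 3 overlapped between the diets, at log2 changes of -0.11, -0.08 and 0.01.

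The representative probe sets of all 7 members of the peripheral stalk and membrane part had a negative change, with a median of -0.18. Atp5k, subunit e, which holds ATP synthase dimers together, had 1946, 1628 and 1720 on chow and 1359, 1381 and 1067 on ketogenic arrays. The 3 ketogenic arrays lay clearly below the 3 chow arrays, and the log2 change was -0.48 ± 0.23 (SE, adjusted p = 0.259). Atp5k passed the threshold with a common array median (0.0456) and with the trimmed mean (0.0381), and failed it under every other alternative, up to 0.653. Atp5h, subunit d of the peripheral stalk, had 2584, 2711 and 1971 against 1985, 2106 and 1403 and overlapped, at -0.41. The direction turned in further probe sets of Atp5h (0.04, mean signal 1441) and of Atp5pb, subunit b (0.07 against -0.24 for the representative). Atp5md, a small accessory subunit, had 1422, 1135 and 1006 against 934, 993 and 862 without overlap, at -0.34. For Atp5l, the subunit g that pairs with subunit e, the log2 change was -0.05, with 1192, 967 and 844 against 1094, 1003 and 796.

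Over the 68 tested members of complexes I, III, IV and V the diets did not overlap for 11, all of them lower on the ketogenic diet, where 29.3% of all genes tested did not overlap (5.17% lower and 24.1% higher). These were Ndufc2, Ndufb11, Uqcrh, Uqcr11, Uqcrb, Cox5a, Cox6b1, Cox5b, Atp5k, Atp5e and Atp5md, at least 2 in each complex.

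Assembly factors of complex I join and modify its parts and leave the finished complex. Of the 8 tested, 0 passed the threshold, and 5 had a positive change, with a median of 0.08. Ndufaf2, which acts late in assembly, had 55.0, 55.0 and 35.2 on chow and 66.7, 72.4 and 57.9 on ketogenic arrays. It was the only one of the 81 members tested whose ketogenic arrays all lay above its chow arrays, by a small margin, at a log2 change of 0.46 ± 0.27 (SE, adjusted p = 0.333). It passed only with the hybridization control scaling (0.0357). Ndufaf6, needed early for the Q module, had 118, 92.6 and 67.5 on chow and 65.3, 98.2 and 45.1 on ketogenic arrays, a log2 change of -0.45 ± 0.34 (SE). Ndufaf8 had 244, 245 and 216 against 258, 161 and 191, and Ndufaf4 had 159, 198 and 125 against 131, 174 and 129. In both the diets overlapped. For Ndufaf1, Ndufaf3, Ndufaf5 and Ndufaf7 the log2 changes were 0.07, 0.08, 0.26 and 0.25.

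Of the isoforms known from heart, muscle, lung or testis, most had low signals on both diets, and the representative probe set of Cox8c did not. As background served a signal of 10.7, set near the upper end (95th percentile) of 27 bacterial controls. Cox7a1, the heart and muscle isoform, lay between 13.1 and 20.9 on all 6 arrays, and Cox4i2, the lung isoform, between 10.2 and 17.1. Cox8b, Cox6b2 and Cox7b2 did not pass the filter and reached at most 12.5, 15.5 and 9.3. Cox6a2, the heart and muscle partner of Cox6a1, had 22.5, 2.5 and 25.2 on chow and 13.4, 38.3 and 25 on ketogenic arrays, with a log2 change of 1.06 ± 0.81 (SE) and wide overlap. Ndufa4l2, a paralog of Ndufa4 that is induced by hypoxia, had 15, 3.3 and 8.0 against 11.2, 24.4 and 12.7. Both were highest on ketogenic array 2. That array also carried the muscle transcript Acta1 at 424, against 2.7 to 15.4 on the other 5. The summed signal of 16 striated muscle markers was 92.2 to 133 on chow and 94.1 to 1940 on ketogenic arrays, with Mb, Myh2 and Myh7 under the background on all 6, and its part in the Cox6a2 and Ndufa4l2 signals was not tested. Cox8c, known as a testis isoform, was above the background on all 6 arrays, with 112, 65.3 and 128 on chow and 80.7, 104 and 47.2 on ketogenic arrays.

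The subunits varied across the arrays together. Of the 68 tested members of complexes I, III, IV and V, 54 had their lowest signal on ketogenic array 3 and 44 their highest on chow array 1. These arrays also differed in level: the median signal of all genes tested was 59.6, 50.2 and 45.3 across chow arrays 1 to 3, and 66.5, 73.7 and 56.2 across ketogenic arrays 1 to 3. The median coefficient of variation of a subunit was 11.8% among chow arrays and 15.3% among ketogenic arrays. For all genes tested, the share lowest on ketogenic array 3 or highest on chow array 1 was not computed. The pattern is therefore not shown to be particular to the subunits.

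**Figure D2:**
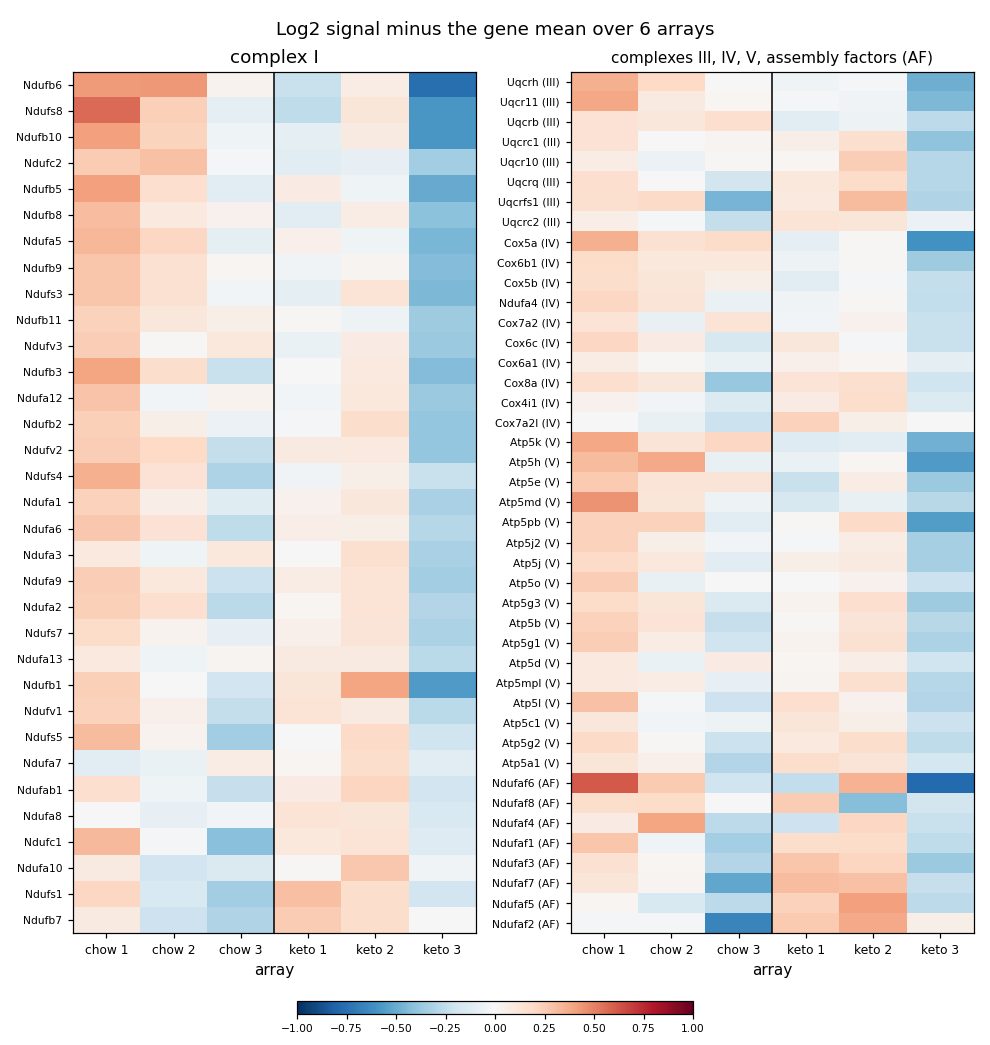
Log2 signal of each tested member minus its own mean over the 6 arrays, for complex I on the left and for complexes III, IV and V and the assembly factors (AF) on the right, ordered within each complex by log2 change; red is above and blue below the gene's mean, and the black line divides chow from ketogenic (keto) arrays. Ketogenic array 3 is the lowest array for 54 of 68 subunits and chow array 1 the highest for 44.

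Read against the other genes of the same array, the members stood lower on each ketogenic array. The median log2 signal of the members minus that of all genes tested was 4.22, 4.28 and 4.22 across chow arrays 1 to 3, and 3.91, 3.77 and 3.80 across ketogenic arrays 1 to 3, a difference of -0.42 between the diet means. With each gene first centred on its mean over the 6 arrays, a form chosen after the data were seen, the difference was -0.35 for the members, -0.38 for complex I, -0.34 for complex III, -0.37 for complex IV and -0.38 for complex V. In each of these complexes all 3 ketogenic arrays lay below all 3 chow arrays. For the assembly factors it was -0.12, with overlap between the diets. Without centring, the assembly factors differed by -0.46 and the diets did not overlap, beside -0.48 for complex I and -0.47 for complex III. The overlap of the assembly factors thus appeared only in the centred form.

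Relative to all genes of the same array, bright genes as a whole were also lower on ketogenic arrays, by less, while on the deposited scale their median change was positive. Of the 68 subunits, 63 had a mean signal of at least 500. All 974 genes with such a signal, which include these subunits, differed by -0.19 in the same centred measure. Their median log2 change was 0.06 (44 called higher and 36 lower), against -0.11 for the 63, and it was -0.02 for the 476 genes with a signal over 1000, against -0.13 for the 39 subunits among them. Quantile normalization, which gives every array the same distribution, moved the median of the members minus that of all genes from -0.341 to -0.142. The part of signal strength in the lower level of the subunits was not tested further.

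**Figure D3:**
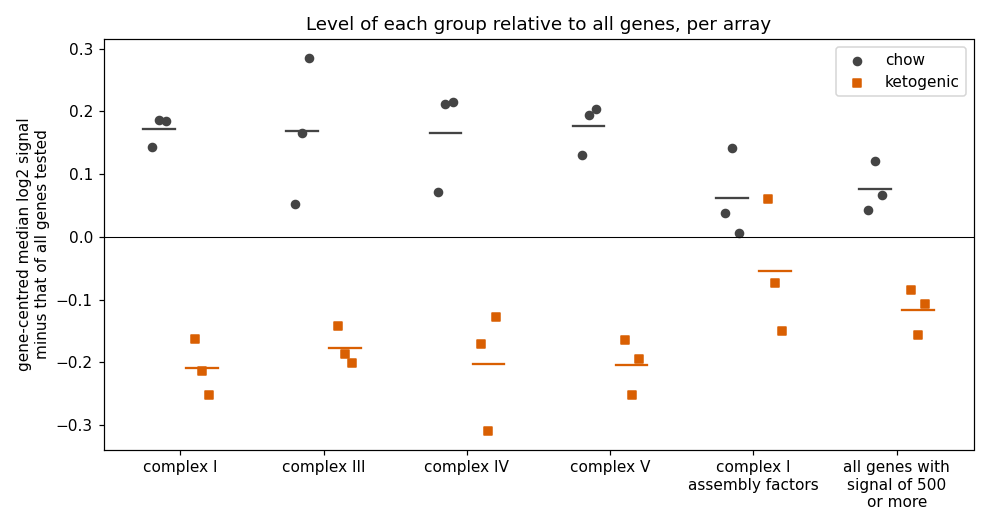
Median over the genes of a group of the gene-centred log2 signal, minus the same median over all genes tested, on each of the 3 chow (circles) and 3 ketogenic arrays (squares), with lines at the diet means. The diets do not overlap in complexes I, III, IV and V, differing by -0.34 to -0.38. In this centred form they overlap for the assembly factors, which without centring do not overlap and differ by -0.46. All genes with a signal of 500 or more differ by -0.19.

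**Figure D4:**
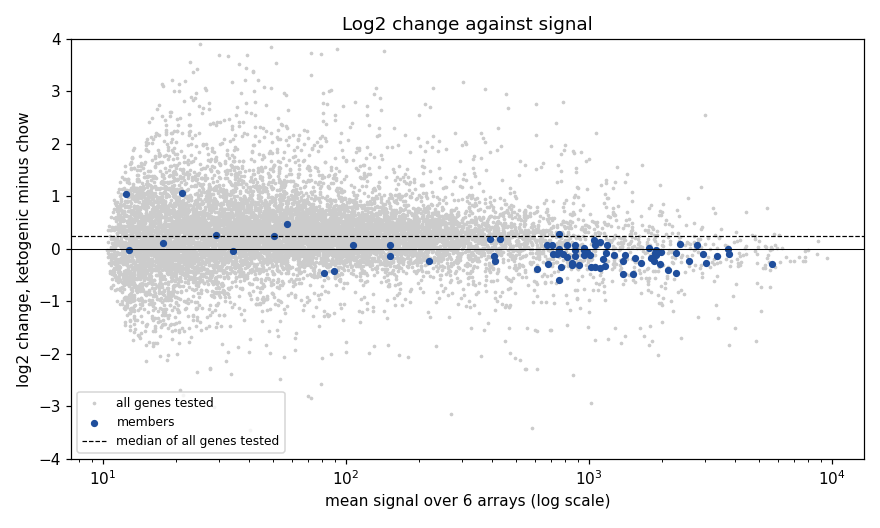
Log2 change (ketogenic minus chow) against the mean signal over 6 arrays (log scale) of all 11858 genes tested (grey) and the 81 members tested (blue); the dashed line is the median of all genes, and 21 genes beyond a log2 change of 4 in either direction are not drawn. The members lie mostly at high signal and close to 0.

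Of 5 measures of the arrays themselves, 2 did not overlap between the diets. Hybridization controls, which are spiked in at known amounts, averaged 641.7 ± 8.53 (SD, n = 3) for chow and 499.5 ± 18.4 (SD, n = 3) for the ketogenic diet. The actin signal at the 3′ end over that at the 5′ end, which rises as RNA degrades, averaged 2.08 ± 0.107 (SD, n = 3) for chow and 1.59 ± 0.082 (SD, n = 3) for the ketogenic diet. For both of these the two-sided exact permutation p was 0.1, the smallest that 3 against 3 arrays allow. The same ratio for Gapdh overlapped, at 0.839 ± 0.115 (SD, n = 3) and 0.793 ± 0.0187 (SD, n = 3), with exact permutation p = 0.9. The 2% trimmed mean and the median signal also overlapped, with exact permutation p = 0.3 and 0.2. Their part in the subunit values was not tested.

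Further probe sets gave a second reading for 43 of the genes. None of the 68 further probe sets that passed the filter was called (0 at adjusted p under 0.05 in limma's test over all probe sets). Among the 52 with a mean signal of at least 100, 41 had the sign of the gene's representative and 49 lay within 0.5 of its log2 change. The lowest was one of Atp5o, the subunit that joins the F1 head to the peripheral stalk, with a log2 change of -1.02, while its representative gave -0.11. For Cox6c and Ndufb5 a further probe set gave -0.75 and -0.69, with representatives at -0.08 and -0.31. The further probe sets of Cox5a gave -0.68 and -0.03, against -0.46 for the representative, and the highest change among the 52 was one of Cox7a2l, 0.49.

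Other genes that feed, build or regulate the chain were taken from lists by function. Of 6 tested genes of complex II, which passes electrons from succinate, 0 passed the threshold. Sdhb, its iron-sulfur subunit, had 1932, 1644 and 1573 on chow and 1327, 1290 and 1028 on ketogenic arrays, without overlap, at a log2 change of -0.50 ± 0.24 (SE, adjusted p = 0.243). It passed with a common array median and with the trimmed mean (0.0414 and 0.0297). Sdha, the flavoprotein, overlapped between the diets at -0.05. Cyc1 and Cycs, which encode cytochromes c1 and c, had log2 changes of -0.24 and -0.09. The mitochondrially encoded ND5 of complex I had 5495, 5619 and 4131 on chow and 4687, 5284 and 4250 on ketogenic arrays, at -0.09.

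Among carriers of nucleotides across the inner membrane 1 gene passed the threshold. Slc25a4, the ADP/ATP carrier typical of heart and muscle, rose from 30.8, 32.8 and 19.2 on chow to 73.7, 115 and 78.9 on ketogenic arrays. The log2 change was 1.70 ± 0.30 (SE, adjusted p = 0.0119), above 0 in the 18 alternatives that measured it, and the call was lost in 1 of them, without the filter (0.068). Slc25a5, the ADP/ATP carrier of most tissues, had 3076, 3253 and 2303 against 3523, 3551 and 2875, a log2 change of 0.21 that did not pass the threshold. Of the 8 tested carriers, porins and uncoupling proteins 1 rose and 0 fell, where 6.6% of all genes tested were called higher and 0.86% lower.

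Of 34 tested assembly factors outside the naming rule, Cox19, a copper-handling factor of complex IV, alone rose, and 0 fell. It had 232, 197 and 223 on chow and 398, 522 and 408 on ketogenic arrays, with a log2 change of 1.02 ± 0.23 (SE, adjusted p = 0.0333). That call was lost when any 1 array was left out (0.0524 to 0.107) and without the filter (0.0906). Among 8 tested enzymes that pass electrons to ubiquinone from other substrates, 1 fell and 0 rose. This was Prodh, proline dehydrogenase, from 510, 558 and 573 on chow to 205, 211 and 154 on ketogenic arrays, at -1.54 ± 0.24 (SE, adjusted p = 0.00703). It stayed past the threshold in all alternatives. Gpd2 of this list was higher on every ketogenic array, with 258, 179 and 124 on chow and 336, 550 and 354 on ketogenic arrays. Its log2 change of 1.17 ± 0.33 (SE, adjusted p = 0.0684 in limma's test) did not pass the threshold. For Etfdh, Chdh, Dhodh, Etfa, Etfb and Sqor the log2 changes were 0.73, 0.64, 0.07, 0.06, 0.03 and 0.02. Of 12 genes of ubiquinone synthesis 0 passed.

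Regulators of mitochondrial gene expression did not pass the threshold (0 of 17). Ppargc1b, a coactivator of the estrogen-related receptors, had 85.5, 87.6 and 87.9 on chow and 73.0, 63.4 and 49.0 on ketogenic arrays, without overlap, at a log2 change of -0.51 ± 0.24 (SE, adjusted p = 0.246). Its relative Ppargc1a, the main inducer of mitochondrial biogenesis, was at -0.13 and overlapped. Esrra, Nrf1, Gabpa and Tfam, the mitochondrial transcription factor, had log2 changes of -0.02, 0.35, 0.15 and 0.30.

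**Figure D5:**
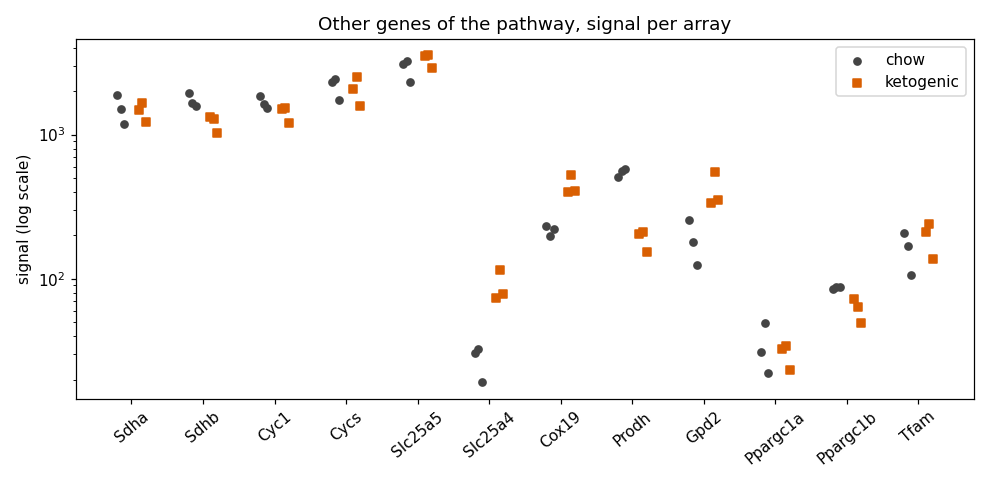
Signal (log scale) of 12 other genes of the pathway on each of the 3 chow (circles) and 3 ketogenic arrays (squares). Slc25a4, Cox19 and Gpd2 are higher and Prodh lower on every ketogenic array, Gpd2 without passing the threshold. Sdhb, Cyc1 and Ppargc1b are also lower on every ketogenic array, without passing the threshold.

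Markers of hepatocytes were bright on all arrays, with a summed signal over 14 genes of 87817 to 91521 on chow and 69941 to 80288 on ketogenic arrays. Of these 14, 1 fell, the urea cycle enzyme Cps1 (log2 change -1.82, mean signal 5836 on chow and 1730 on ketogenic arrays). The median log2 change over the 14 was -0.20. Alb, Hpx and Ahsg were at -0.01, 0.02 and 0.04, and Apob was higher without overlap at 0.56. The remaining hepatocyte markers ran from -0.82 (Pck1) to -0.11 (Apoa2). Macrophage markers were higher on the ketogenic diet: 14 of 18 tested rose and 0 fell, and their summed signal over 19 genes was 1722 to 2141 on chow and 6844 to 8903 on ketogenic arrays. Marco, Lyz1 and Cd68, genes of phagocytes, had log2 changes of 3.70, 2.79 and 2.71 (Lyz1 gave 0.108 from the probe sets left when those ending in _s_at, _x_at and _a_at were dropped). The call was lost in 5 of 18 alternatives for Marco (adjusted p up to 0.138), 1 of them without chow array 3 (0.0748) and 1 without ketogenic array 2 (0.063). Of 15 tested stellate cell and fibroblast markers 12 rose and 0 fell, led by the collagen genes Col1a1 (3.73) and Col3a1 (2.96) and by the growth factor receptor gene Pdgfra (2.79). For Col1a1 the call was lost in 2 of 18 alternatives (highest adjusted p 0.0859), one being the fit that leaves out ketogenic array 3. For Pdgfra it was lost in 6 of 18 (highest 0.127), also when the third array of either diet was left out. Of 12 endothelial markers 1 rose, Tek (1.19), whose call was lost in 6 of 18 alternatives (highest 0.0944), including each fit that leaves out 1 array other than chow array 1. All 12 had a positive log2 change, from 0.18 to 1.19, with a median of 0.60 against 0.237 over all genes tested. Of 3 tested adipocyte markers 2 rose while Adipoq, Lep and Ucp1 lay under the background on all 6 arrays. The genes of this list that rose were Lpl and Fabp4, with log2 changes of 2.20 and 1.75 (Fabp4 gave -0.459 from the probe sets left in the same way). Retn, also tested, had a log2 change of -0.69, with overlap between the diets. The summed signal over 7 genes of the list was 150 to 243 on chow and 510 to 828 on ketogenic arrays. Of 4 tested lymphocyte markers and 3 of bile duct cells 0 passed. In whole liver a smaller share of hepatocyte RNA and less of a transcript per hepatocyte cannot be told apart, and the part of these markers in the subunit values was not tested.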

How the data were processed

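Liver RNA of 6 samples was measured on one-colour Affymetrix arrays, 3 per diet. The authors deposited MAS5 signal intensities on a linear scale, made with GCOS per the submitters' processing notes, with no version or scaling target given here. Probe sets were named from the platform annotation, and 10 that carry a member's symbol beside another were left out.

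Intensities under 1.1 (the 10th percentile) were set to that value, and all were put on the log2 scale without further normalization. Genes whose representative probe set had a mean log2 signal under 3.35 (a signal of 10.2, the median over all probe sets) were left out. The diets were compared with limma 3.58.1 in R 4.3.3 (lmFit and eBayes, two-sided), with Benjamini-Hochberg adjustment over 11858 genes and a threshold of 0.05. All adjusted p-values come from this fit or from its alternatives, which varied the array scaling, floor, filter, probe set choice, prior and each array left out. Array measures were compared by exact permutation. The fit was tested on simulated data, with genes drawn independently and no difference in array level. That test therefore does not cover array levels or genes that vary together.

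Members and gene lists were chosen with earlier results of these data known. The naming rule took, in each complex and the assembly factors, the 2 brightest members and those with the largest and the smallest change, the isoform pairs, up to 3 called genes of each other list, and Ppargc1a, Ppargc1b, Esrra, Nrf1, Gabpa, Tfam, Cycs, Cyc1, Sdha, Sdhb and Slc25a5 (Ucp2, also in the rule, was not analysed here). Other genes, such as Ndufc2, Ndufb11, Ndufs8, Ndufb10, Uqcr11, Cox5b, Atp5e, Atp5md, Atp5h and Acta1, were named after their values were seen. Intervals cover the spread between arrays, and the number of arrays limits the precision.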

Additional observations from a re-analysis of the deposited data

How the results depend on the processing

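The array scaling shifted the median of all genes by -0.112 (common array median), -0.213 (common 2% trimmed mean), -0.243 (quantile normalization) or 0.362 (hybridization controls). Members called lower, 0 as deposited, came to 1 with the common median and 6 with the trimmed mean, and members called higher to 2 with the hybridization controls; both counts were 0 under quantile normalization and every other alternative. The median of the members became -0.317 with the trimmed mean, where complexes III, IV and V gave -0.281, -0.321 and -0.319. With the hybridization controls it became 0.257, with 0.246, 0.294, 0.254 and 0.255 for complexes I, III, IV and V, 0.437 for the assembly factors and 0.467 for the tissue isoforms. The isoforms gave -0.418 with the filter at the 75th percentile. The median of the members minus that of all genes, -0.341 as deposited, was -0.142 with quantile normalization and -0.28 with log2(signal + 16). The level of the members on the arrays, -0.42, became -0.131, -0.343 and, with the mean of a gene's probe sets, -0.513; centring each gene, chosen after seeing the data, gave -0.35. Leaving out 1 array moved the median of the members between -0.203 and 0.019 and their level between -0.457 and -0.391, with 0 members called.

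Other pathway genes called higher, 2 as deposited, came to 4, and those called lower, 1 as deposited, to 2, with the common median, log2(signal + 16), the filter at the 75th percentile or a trended robust prior. With the trimmed mean 3 were lower, and with the hybridization controls 12 were higher. Without the filter 0 were higher, without _s_at, _x_at and _a_at probe sets 1, and with 1 array left out 1 to 2. In that same probe set alternative Fabp4 turned from 1.75 to -0.459. Genes called in all, 885 as deposited, came to 3870 with the hybridization controls, 1621 with log2(signal + 16), 1446 with the trended robust prior and 267 without the filter, and to 498 at the lowest with 1 array left out. The causes were not tested. No paired analysis was possible because the replicate numbers follow the order of the samples and pair nothing.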
